A study of Drosophila melanogaster with 3 samples.

Results

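The 10 tubulin genes of Drosophila melanogaster described here are 4 α-tubulins (alphaTub84B, alphaTub84D, alphaTub85E, alphaTub67C), 4 β-tubulins (betaTub56D, betaTub60D, betaTub85D, betaTub97EF) and 2 γ-tubulins (gammaTub23C, gammaTub37C). They were taken by name from Release 6 gene models, all 10 were found, and they stand among 13968 protein-coding genes on 7 chromosome arms. The measurement, ChIP-seq, recovers DNA together with a protein and sequences it, here to find where Lhr lay. Lethal hybrid rescue (Lhr) encodes a chromatin protein and is known as a partner of Hmr and of heterochromatin protein 1. Per the labels, the embryos were whole, of mixed sex and 0 to 14 hours old, and belonged to a transgenic strain, Lhr-GFP, that carries Lhr with GFP (eGFP in the experiment's own description) at its C-terminal end. The labels do not say which promoter drives the transgene. An anti-GFP antibody recovered the fusion protein from chromatin sonicated to a size range of 200-800 bp. The study holds 3 libraries, biological replicates 1, 2 and 3 of 1 group. The control named in the labels was not analysed here as a sample. Since every embryo carries the fusion and no second group exists, all comparisons below are between genes or between libraries.

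The deposited data are lists of peaks on the dm6 assembly, each with a summit and a signal value, an enrichment computed by the authors whose scale differs from list to list. The final list, thresholded by the irreproducible discovery rate (IDR), held 5190 peaks with signals between 172.8 and 5492.0. It was identical to the 5190 strongest peaks of the combined list of 20761 peaks, so it is a list by combined signal, and a peak in it need not recur in each library. The relaxed lists of replicates 1, 2 and 3 held 22598, 30000 and 18934 peaks. The round number in replicate 2 may be a limit set on its length, which no source used here states, and ranks and shares from that full list would depend on it. Read depth is unknown from such lists, so no counting interval can be given, and a library is represented by its ranks. A lower rank number means a stronger peak. A summit within 500 bp of an annotated start site is called a promoter summit, and the window of a gene is the gene with 5 kb to each side.

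Microtubules are built from dimers of α- and β-tubulin, and γ-tubulin sits in the ring complex that starts their growth. Flies are known to divide these proteins among genes of different use. The genes alphaTub84B, alphaTub84D, betaTub56D and gammaTub23C are known as broadly transcribed, here called ubiquitous. The genes alphaTub67C and gammaTub37C are known to supply the egg and early embryo with maternal product. The gene betaTub85D is known for the spindles and sperm tails of the testis. The genes alphaTub85E, betaTub60D and betaTub97EF are known for narrower sets of cells, such as muscle and sensory support cells for betaTub60D, and are here called lineage-restricted.

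Sequences from the RefSeq Release 6 assembly around 6 of the IDR summits are given first, because they carry the positions and words described further on. They comprise 4 promoters of the tubulin genes and 2 neighbouring promoters that hold the M1BP word. Each runs 5′ to 3′ on the strand of the tubulin gene, covers 100 bp to each side of the summit less any annotated exon, and shows in capitals the matches, on either strand, to the words searched below.
alphaTub84B promoter, chr3R:7086368-7086568, plus strand: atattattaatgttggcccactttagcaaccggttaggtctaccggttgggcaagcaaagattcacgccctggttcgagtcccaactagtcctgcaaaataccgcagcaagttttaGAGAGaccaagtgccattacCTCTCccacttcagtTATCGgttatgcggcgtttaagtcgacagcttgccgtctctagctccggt
alphaTub84D promoter, chr3R:7530572-7530752, plus strand: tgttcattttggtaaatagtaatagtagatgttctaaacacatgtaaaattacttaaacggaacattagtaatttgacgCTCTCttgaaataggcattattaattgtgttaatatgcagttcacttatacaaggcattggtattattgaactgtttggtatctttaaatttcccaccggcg
gammaTub23C promoter, chr2L:2972644-2972844, plus strand: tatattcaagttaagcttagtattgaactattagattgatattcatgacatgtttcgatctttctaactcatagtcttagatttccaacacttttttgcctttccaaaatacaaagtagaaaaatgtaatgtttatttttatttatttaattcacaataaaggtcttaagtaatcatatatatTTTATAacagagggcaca
gammaTub37C promoter at pigeon, chr2L:19185938-19186042, minus strand: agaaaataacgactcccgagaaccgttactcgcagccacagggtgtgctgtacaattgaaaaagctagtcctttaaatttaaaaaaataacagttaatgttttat
betaTub85D window at CG9356, chr3R:9404270-9404384, minus strand: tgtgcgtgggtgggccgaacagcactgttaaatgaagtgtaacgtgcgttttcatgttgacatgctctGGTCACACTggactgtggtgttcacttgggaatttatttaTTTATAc
gammaTub37C window at CG17568, chr2L:19181703-19181866, minus strand: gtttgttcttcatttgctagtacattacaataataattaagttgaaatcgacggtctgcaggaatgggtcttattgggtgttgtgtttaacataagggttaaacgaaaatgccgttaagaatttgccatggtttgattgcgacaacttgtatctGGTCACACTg

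Lhr-eGFP lay at the promoters of 5 of the 10 tubulin genes in the IDR list. These were alphaTub84B, alphaTub84D, betaTub56D and gammaTub23C, the 4 ubiquitous genes, and gammaTub37C, 1 of the 2 maternal genes. The other maternal gene, alphaTub67C, the testis gene betaTub85D and the 3 lineage-restricted genes had no promoter summit there. The share of 50% stands beside 29.2% of all protein-coding genes. In the strongest 5190 peaks of each library the tubulin count was 4 in replicate 1, 5 in replicate 2 and 4 in replicate 3, against 26.6%, 31.2% and 29.1% of all genes. The library mean was thus 43.3% ± 5.77 of tubulin genes and 28.9% ± 2.33 of all genes (SD, n = 3). Only alphaTub84B, gammaTub23C and gammaTub37C were reached in the strongest peaks of all 3 libraries, 3 of 10, while 22.4% of all genes were. With 10 genes picked by name and classes of 1 to 4 genes, these counts are a description and were not tested.

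The gene alphaTub84B (FBgn0003884, 3R 7086599 to 7088839, plus strand), the broadly transcribed α-tubulin, had the strongest promoter summit of the family. Its peak at 3R 7086340 to 7086586 had a signal of 635.9, rank 646, and a summit 131 bp upstream of the start site. The same place ranked 1044 in replicate 1, 497 in replicate 2 and 491 in replicate 3, with signals of 186.1, 198.4 and 255.5 on the scale of each library. The summit lay at −165, −111 and −142 bp in replicates 1, 2 and 3, which is −139 ± 27.1 bp (SD, n = 3). No other tubulin promoter ranked higher in any of the 3 libraries. A minor summit inside the 5′ UTR, at +34 bp in replicate 1 and +102 bp in replicate 2, ranked 7030 and 4940 there.

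The gene gammaTub23C (FBgn0260639, 2L 2972891 to 2974858, plus strand), the zygotic γ-tubulin, had the second strongest promoter. Its peak at 2L 2972529 to 2972958 had a signal of 443.1, rank 1371, with the summit 147 bp upstream of the start. It ranked 1161, 1919 and 1374 in replicates 1, 2 and 3, with library signals of 175.6, 109.9 and 159.2. This position was the most closely repeated of the family, at −158, −145 and −149 bp, or −151 ± 6.66 bp (SD, n = 3). It came second behind alphaTub84B in each of the 3 libraries, and in replicate 1 the neighbours were close, at rank 1044 for alphaTub84B and 1161 for gammaTub23C.

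The maternal γ-tubulin gammaTub37C (FBgn0010097, 2L 19183863 to 19185726, minus strand) had a peak at 2L 19185823 to 19186252 with a signal of 286.4, rank 2888. It ranked 2993, 2070 and 3590 in replicates 1, 2 and 3, with library signals between 85.7 and 105.7. The summit counts for gammaTub37C by distance, at 312 bp upstream, but it lay 5 bp from the start of the divergent gene pigeon, and the libraries placed it 7, 49 and 2 bp from that start. Measured from gammaTub37C the position was −298 ± 25.8 bp (SD, n = 3). With a promoter distance of 200 bp this gene is no longer counted, and 4 tubulin genes remain.

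The remaining ubiquitous genes had weaker and less even summits. The α-tubulin alphaTub84D (FBgn0003885, 3R 7530753 to 7532732, plus strand) had a peak at 3R 7530457 to 7530886 with a signal of 192.9, rank 4609 of 5190, and a summit 81 bp upstream. The strongest summit within 500 bp of its start was at −195 bp with rank 3526 in replicate 1, at −329 bp with rank 5136 in replicate 2 and at −201 bp with rank 5743 in replicate 3. Their mean of −242 ± 75.7 bp (SD, n = 3) had the widest spread of the 4 genes with a summit in each library. The summit in replicate 2 was nearer to Rtnl2, a reticulon-like gene on the other strand, at 183 bp. Within 100 bp of the IDR summit itself, replicate 1 had a weak summit of rank 15876, replicate 2 had one of rank 6174, and replicate 3 had none, its nearest being 120 bp away.

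The broadly used β-tubulin betaTub56D (FBgn0284243, 2R 19447319 to 19451600, minus strand, with 2 annotated start sites) had a signal of 218.8, rank 4013, and a summit 70 bp upstream of its first start site, in the peak at 2R 19451455 to 19451884. It ranked 4454 in replicate 2, at −40 bp with a signal of 63.0, and 3526 in replicate 3, at −21 bp with a signal of 86.9. Replicate 1 had no summit there, and its nearest lay 2800 bp away. A call at betaTub56D therefore rests on replicates 2 and 3.

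**Figure D1:**
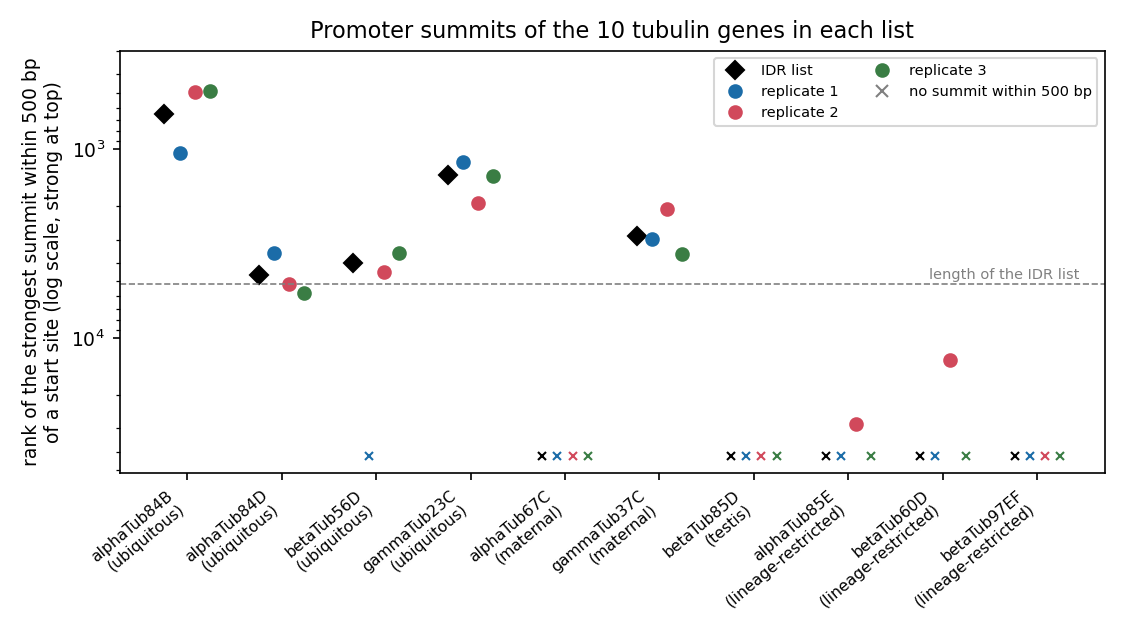
Rank of the strongest promoter summit of each tubulin gene, on a log scale with strong peaks at the top, in the IDR list (black diamonds) and in the full lists of replicates 1 to 3 (coloured points), with crosses where no summit lay within 500 bp. The points of alphaTub84B (491 to 1044) and gammaTub23C (1161 to 1919) sit above all other genes, those of alphaTub84D straddle the dashed line at 5190, and the testis and lineage-restricted genes have at most 1 point, far below it.

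The 5 promoter summits, in order of IDR signal, were those of alphaTub84B, gammaTub23C, gammaTub37C, betaTub56D and alphaTub84D. The order of the first and second held in all 3 libraries. Among the other 3 the order changed between libraries, with gammaTub37C ahead of betaTub56D in replicate 2 (2070 and 4454) and behind it in replicate 3 (3590 and 3526). Their median signal was 286.4 at a median rank of 2888, beside 328.7 and 2330.5 for the 3202 IDR summits within 500 bp of any protein-coding start. The tubulin promoters were thus spread over the list and did not gather at its top. Library ranks like those of alphaTub84B were sought among 2595 candidate genes with a rank in the IDR list and in each library. This set is smaller than the 3124 genes with a promoter summit in the strongest peaks of all 3 libraries. By Euclidean distance of log10 ranks, the closest was Coq2, an enzyme of ubiquinone synthesis (ranks 1037, 529 and 531, distance 0.0436). Next came Mettl3, the RNA adenosine methyltransferase (1031, 536 and 612, distance 0.101), and LPCAT, a lysophospholipid acyltransferase (1152, 541 and 607, distance 0.108).

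Each of the 5 tubulin promoters with a summit faces a gene that starts close by on the other strand. The gap between start sites was 516 bp from alphaTub84B to Tailor, an RNA uridylyltransferase, 512 bp from alphaTub84D to Rtnl2, and 904 bp from betaTub56D to CG7744. It was 383 bp from gammaTub23C to Rrp1, a DNA repair nuclease, and 317 bp from gammaTub37C to pigeon. The 5 tubulin genes without a promoter summit had their nearest divergent start between 2165 bp (alphaTub67C and fry) and 38231 bp (betaTub97EF and trv) away. Counted this way, 5 of 5 tubulin genes with a divergent start within 1000 bp had a promoter summit, against 51.0% of all such genes (2508 of 4913). Of the tubulin genes without one, 0 of 5 did, against 17.4% (1577 of 9055). This split was added after the promoter calls had been seen, so it describes these genes and cannot serve as a test. All 4 ubiquitous tubulin genes are in the divergent class. Breadth of use and a divergent neighbour differ only at gammaTub37C, a maternal gene with a divergent start. Its summit lay 5 bp from the start of pigeon. Which trait goes with a summit was not tested, and a single gene cannot decide it. Within the shared stretch the summit was nearer to the tubulin start at alphaTub84B (131 bp against 385 bp to Tailor), alphaTub84D (81 bp against 431 bp to Rtnl2), betaTub56D (70 bp against 834 bp to CG7744) and gammaTub23C (147 bp against 236 bp to Rrp1). At gammaTub37C it was nearer to the partner. These distances are those of the IDR summits. At alphaTub84D the strongest promoter summit of replicate 2 was nearer to Rtnl2, at 183 bp, and those of replicates 1 and 3 were nearer to alphaTub84D.

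The 5 tubulin genes without an IDR promoter summit were nearly empty at their starts in the relaxed lists as well. The full lists gave a promoter summit to 4 of 10 tubulin genes in replicate 1, 7 in replicate 2 and 5 in replicate 3, and the combined list to 5. The shares of all genes in those lists were 42.6%, 54.5%, 45.2% and 45.5%. The tubulin share was thus below that of all genes in replicate 1, above it in replicate 2, and near it in replicate 3 and the combined list. The genes added in replicate 2 were alphaTub85E, at +79 bp with rank 28350 of 30000, and betaTub60D, at −30 bp with rank 12959. Neither was found at its start in another library. The maternal alphaTub67C (FBgn0087040, 3L 9681268 to 9683370, plus strand) had its closest combined summit at −3131 bp with a signal of 167.6. That summit was nearer to the start of fry, 966 bp away. Its rank of 5348 is just outside the 5190 peaks of the IDR list, and replicates 2 and 3 held it at ranks 7577 and 6625, but replicate 1 did not.

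The testis gene betaTub85D (FBgn0003889, 3R 9408383 to 9410282, minus strand) had a weak summit that recurred in all 3 libraries just beyond the promoter distance. It lay at −638 bp in the combined list, rank 9565, and at −634, −639 and −684 bp in replicates 1, 2 and 3, with ranks 21095, 18868 and 11266. The gene betaTub97EF (FBgn0003890, 3R 27967008 to 27988384, minus strand), known from gut and blood cells, had a summit in its intron at +868 bp with rank 5792 in the combined list. Replicates 1 and 3 placed it at +829 and +863 bp, ranks 6460 and 4187, whereas the only intron summit of replicate 2 was at +1351 bp with rank 14854. Upstream of its start a summit lay at −580 bp with rank 14880 in the combined list and at −586 bp with rank 7037 in replicate 1, and the other libraries had none there. The gene alphaTub85E (FBgn0003886, 3R 9731221 to 9733250, minus strand) had no summit in its window in the combined list.

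**Figure D2:**
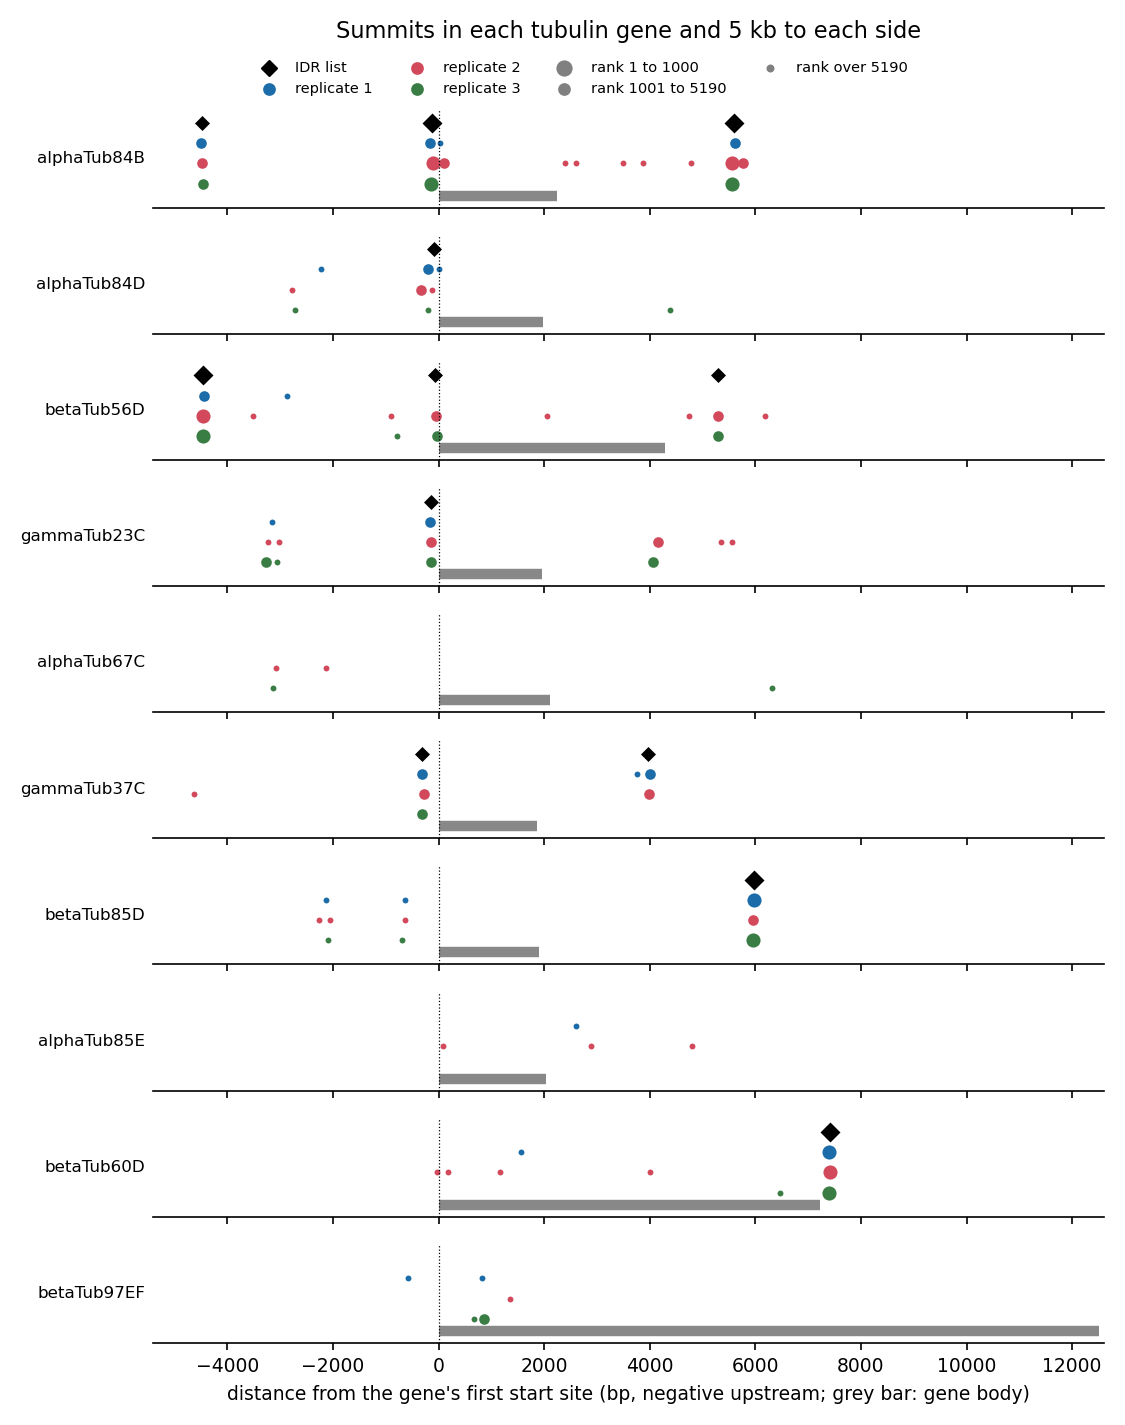
Position of every summit in the window of each tubulin gene, in bp from the gene's first start site (upstream to the left, gene body as a grey bar), for the IDR list and replicates 1 to 3; larger symbols mark stronger peaks. The bar and window of betaTub97EF (gene length 21377 bp) run past the right edge, where no list has a summit. Black diamonds sit just upstream of 5 starts, and the 7 others lie in the flanks, none inside a gene.

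Over the whole windows, 7 of 10 tubulin genes had at least 1 IDR summit, against 57.3% of all genes. In the combined list 9 did, against 79.3%. In the full lists of replicates 1, 2 and 3 the counts were 9, 10 and 9, against 81.9%, 82.2% and 81.4%. The window shares of all genes are high because windows of 5 kb reach the neighbours. No tubulin gene had an IDR summit inside the gene itself, 0 of 10, against 11.0% of all genes. The median gene length was 2066.5 bp for the tubulin genes and 2164.5 bp for all genes.

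In all, 12 IDR summits lay in the tubulin windows. Of these, 5 were the promoter summits above, 5 lay within 500 bp of the start of another gene only, and 2 lay farther than 500 bp from every protein-coding start. Among all IDR summits, 38.3% were that far. A counterpart within 100 bp was found in all 3 libraries for 8 of the 12. The remaining 4 were alphaTub84D and betaTub56D at their own promoters, the EloC promoter in the betaTub56D window and the CG17568 promoter in the gammaTub37C window. The count was also 8 when only the strongest peaks of each library were used. Of all 5190 IDR peaks, 3336 were shared by all 3 libraries, so such recurrence does not set the tubulin sites apart.

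The strongest of the 12 lay at the end of betaTub60D (FBgn0288686, 2R 24305881 to 24313099, plus strand), the β-tubulin known from developing muscle. The peak at 2R 24313134 to 24313446 had a signal of 987.7, rank 184, and a summit 189 bp past the annotated gene end and 7407 bp from the start. It ranked 322 in replicate 1, 86 in replicate 2 and 249 in replicate 3, with library signals of 298.9, 358.9 and 326.7. It was thus a strong peak in each library. Among the 1988 IDR summits over 500 bp from every protein-coding start it was number 64. The next annotated features were a long noncoding RNA, lncRNA:CR44810, 11739 bp away, and Fatp3, a fatty acid transport protein gene, 15177 bp away. In contrast to this place, the betaTub60D promoter had weak summits in replicate 2 only, the one at −30 bp given above and one at +178 bp in the 5′ UTR with rank 19271.

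The second site away from promoters was in the alphaTub84B window, at 3R 7091989 to 7092418, 3365 bp past the end of the gene. Its signal was 525.9, rank 990, and it ranked 1814, 575 and 888 in replicates 1, 2 and 3. The nearest protein-coding start was that of e(y)2b, 1731 bp away, and a long noncoding RNA, lncRNA:CR43685, lay 143 bp away. An annotated transposable element of the hobo family lay 613 bp from the summit.

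Of the 5 summits at other genes' promoters, 3 had a higher signal than the promoters of gammaTub37C, betaTub56D and alphaTub84D. In the betaTub85D window the promoter of CG9356 had a signal of 578.1, rank 823, with ranks of 739, 1373 and 864 in replicates 1, 2 and 3. The promoter of mei-W68, the nuclease of meiotic recombination, upstream of betaTub56D, had a signal of 572.9, rank 837, with ranks of 1218, 449 and 899. The promoter of Dpck, a kinase of coenzyme A synthesis, upstream of alphaTub84B, had a signal of 353.8, rank 2060, with ranks of 3091, 1357 and 2302. The weakest were CG17568 past gammaTub37C (signal 225.6, rank 3893) and EloC, the Elongin C gene, past betaTub56D (signal 216.6, rank 4067). CG17568 had no counterpart in replicate 3 and EloC had none in replicate 1.

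**Figure D3:**
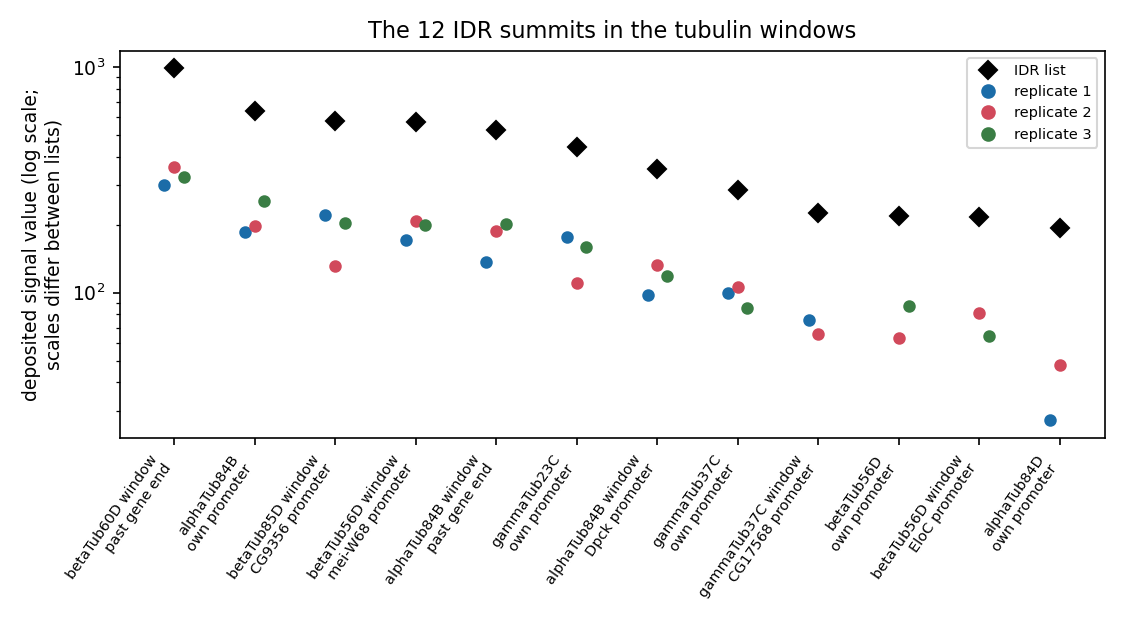
Deposited signal value, on a log scale, of the 12 IDR summits in the tubulin windows, in order of IDR signal, with the signal of the counterpart within 100 bp in each library where there was one. Heights may be compared within a list and not between lists; among these sites the betaTub60D site leads every list (987.7 in the IDR list) and the alphaTub84D promoter is last in the IDR list (192.9).

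The words searched within 100 bp of a summit on both strands were 7 exact words. They were TATCGATA for the DRE, CGATA for the insulator protein BEAF-32 (which is also part of the DRE word), GGTCACACT for the core promoter factor M1BP, and GAGAG for the factor Trl. The others were CAGCTG as an E-box, TATAAA as the core of many promoters, and CAGGTAG for the early embryonic activator Zelda. The M1BP word was at 4 of the 12 tubulin sites, beside 6.59% of all IDR summits, 10.3% of IDR summits at promoters and 2.79% of equally long windows ending at the start sites of all genes. It covered the summit itself at CG9356 and lay 54 bp from it at CG17568, as printed above, and 57 bp from it at Dpck. The fourth was alphaTub84D, 80 bp from the summit, where the match reaches the transcribed part left out of the printed sequence. GAGAG was at 5 of 12 sites, beside 19.3%, and TATAAA at 6 of 12, beside 33.0%. CGATA was at 2 of 12, beside 37.8%, and CAGCTG at 1 of 12, beside 10.6%. The DRE word and the Zelda word were at 0 of 12, beside 7.21% and 0.751%. No set of words was common to the 5 tubulin promoters. The alphaTub84B promoter had CGATA and 2 matches to GAGAG, betaTub56D had GAGAG and TATAAA, gammaTub23C had TATAAA only, and the gammaTub37C and betaTub60D sites had none of the 7 words. A match is a description of the letters and not of a bound factor, and a count of 0 says only that these letters were not in the window.

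Base composition also differed among these promoters. The 201 bp around the summit held 49.3% G and C at alphaTub84B and 24.9% at gammaTub23C, the highest and the lowest of the 12 sites. At alphaTub84D, gammaTub37C and betaTub56D it was 31.3%, 36.8% and 37.8%. The median over all IDR summits was 36.3%, with quartiles of 31.3% and 41.3%.

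Tubulin genes are copies of one another, so it was examined whether reads could be placed. The coding sequences of alphaTub84B and alphaTub84D were identical at 92.2% of positions (1245 of 1350), and those of the 2 γ-tubulins at 75.9%. Of all stretches of 31 bases in the coding exons, 85.2% occurred once in the assembly for alphaTub84B, 83.2% for alphaTub84D and at least 95.3% for each other member. In the 500 bp upstream of every one of the 10 starts the share was 100%. The promoter sequences can therefore be told apart at this length, whereas the sources used here state neither read length nor the handling of reads with several matches. The part that such reads play in the lack of summits inside the coding exons of alphaTub84B and alphaTub84D was not tested.

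The genes of proteins that fold, bind, move along or modify tubulin were counted in the same way, from lists of 92 genes in all with the actins and 2 tubulin-like genes. A promoter summit in the IDR list was found for 36 of them (39.1%, beside 29.2% of all genes). In the strongest peaks of all 3 libraries 29 of the 92 had one, beside 22.4% of all genes. The γ-tubulin ring complex had 3 of 7. They were Grip71, a recruiting subunit (signal 710.8, rank 480), Grip91 (rank 1890) and Grip84 (rank 2129), while Grip128 and Grip163 had none. The cofactors that fold tubulin had 3 of 6, with Tbcd at rank 2422, Tbce at 2909 and Tbcc at 4310, and none at Arl2 or Tbca. Augmin, the complex that branches spindle microtubules, had 5 of 9, led by wac (signal 590.1, rank 776), dgt2, dgt1 and dgt6 (ranks 2720, 3108 and 3246), with none at dgt4 or dgt5.

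Some partners of tubulin had stronger promoter summits than any tubulin gene. Among proteins that bind or sever microtubules 8 of 19 had a summit (42.1%, beside 29.2% of all protein-coding genes). They were led by Map205 (signal 1203.2, rank 110), Jupiter (885.5, rank 246), chb, the fly CLASP (580.4, rank 812), and Kat60, the katanin catalytic subunit (399.8, rank 1659), with none at CLIP-190 or Eb1. Of the kinesin and dynein genes 12 of 28 had one (42.9%). They were led by nod, a chromosome-bound kinesin (742.3, rank 431), Dlic, a dynein light intermediate chain (688.5, rank 520), Klp98A (545.8, rank 923) and Dhc64C, the dynein heavy chain (473.2, rank 1216), with none at DCTN1-p150 or Kif3C. Tubulin modifying enzymes had 3 of 15 (20%), below the 29.2% of all genes. They were Atat, an α-tubulin acetyltransferase, with the highest signal of all these lists (1212.6, rank 108), TTLL12 (rank 2363) and Sirt2 (rank 4292, found in 1 library only), with none at HDAC6 or Nna1.

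The 6 actin genes, the other large cytoskeletal family, had 2 promoter summits (33.3%, near the 29.2% of all protein-coding genes). They were at the cytoplasmic actins Act42A (signal 649.5, rank 614, all 3 libraries) and Act5C (signal 180.1, rank 4977, 2 libraries), and none was found at Act57B or Act79B, which are known as muscle actins. The tubulin-like genes CG7794 and betaTub65B had none. These lists were drawn up with results of the data known and were not tested.

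**Figure D4:**
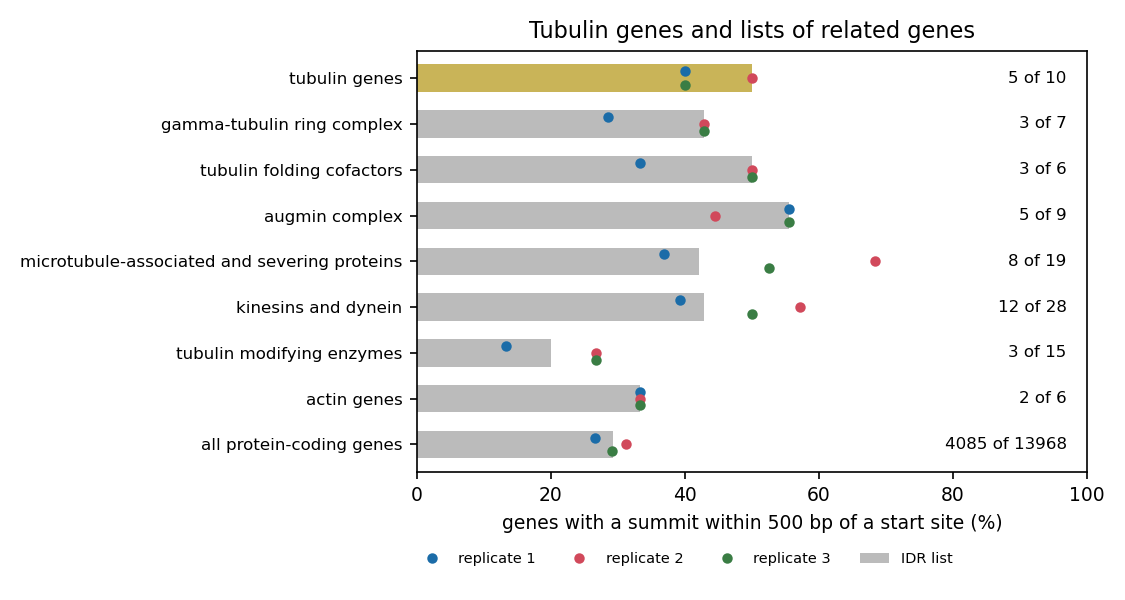
Share of genes with a promoter summit, in percent, for the tubulin genes (gold bar) and related lists (grey bars) in the IDR list, with the share in the strongest 5190 peaks of each library as points and the IDR count at the right. The tubulin bar stands at 5 of 10 and that of all protein-coding genes at 4085 of 13968.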

How the data were processed

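The files used are peak lists on dm6 in narrowPeak layout, per the labels and each library's text listing. The signal value and the summit offset of each peak were deposited by the authors. Each library's list derives from its own alignment and 1 further alignment shared by all 3, per those listings. The sources used here name no aligner, caller or IDR threshold. A summit was placed at the start of the peak plus the offset. Lists for dm3 and signal tracks were not used.

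Gene models were Ensembl release 115 and sequence was RefSeq Release 6, the assembly that dm6 names, and all peaks ended within the lengths of its 7 arms. Ranks follow the signal within a list, and libraries entered through full lists or through their 5190 strongest peaks, for equal length. Counterparts were summits within 100 bp. The counting steps were tested on simulated data. Python 3.11.15, pandas 2.3.3, numpy 2.4.6 and biopython 1.88 were used. The labels call the libraries biological replicates. Nothing was tested between groups, since there is 1.

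The genes, classes, lists, words and alternatives were chosen with earlier results of these data known. Genes named are the 10 members, the nearest gene of each IDR summit in their windows, from each list the 4 with the highest signal and the first 2 without a summit by alphabet, and the 3 genes with library ranks most like the strongest member. The divergent neighbours, features beside the 2 sites away from promoters and the tubulin-like genes were added after values were seen.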

Additional observations from a re-analysis of the deposited data

How the results depend on the processing

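The count of 5 tubulin genes with a promoter summit (29.2% of all genes) was 5 in the combined list (45.5%), 5 at 1000 bp (32.2%) and 4 at 200 bp (23.0%). It fell to 2 (alphaTub84B and gammaTub23C) in the upper 50% of the IDR list, where the share of all genes was 17.2%, and to 3 (with gammaTub37C) among the 3336 IDR peaks shared by all 3 libraries (20.9%). A distance of 200 bp for shared peaks, chosen after seeing the data, also gave 3 (22.2%). IDR peaks shared by the other libraries when 1 was left out gave 3 to 4 (22.4% to 23.9%). Without replicate 1 alphaTub84D was lost, and without replicate 2 or without replicate 3 betaTub56D was lost too. These lists are shorter by construction (3632 to 3915 peaks), and the loss is not put down to a library. Related genes with a promoter summit, 36, numbered 20 in the upper 50% and 60 in the combined list, where the shares of all genes were 17.2% and 45.5%. Any of the 7 words was found at 10 of the 12 sites, and at 6 within 50 bp and 12 within 200 bp. The share of all IDR summits with any of the words was not counted. Short words are common, with CGATA at 37.8% and TATAAA at 33.0% of all IDR summits within 100 bp. These counts therefore do not set the tubulin sites apart. The count of 7 windows (57.3% of all genes) was 6 with flanks of 2 kb (44.2%) and 9 with 10 kb (70.2%). In the full list of replicate 1 the order of the shares turned, with 40% of tubulin genes against 42.6% of all genes. No paired analysis was possible because there is only 1 group. Read depth is unknown, so a missing summit cannot be called absent binding.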

Other observations

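Beside gammaTub23C, 2 libraries held a strong summit that the combined list lacks. It lay between CG9641 and CG3165, with rank 1295 and a signal of 165.1 in replicate 3, 89 bp from the start of CG9641, and rank 1612 and a signal of 119.7 in replicate 2, 78 bp from the start of CG3165. The summits were 93 bp apart. The nearest combined summit was 4207 bp away and the nearest summit of replicate 1 was 4218 bp away. In replicate 2 this rank was ahead of that of the gammaTub23C promoter (1919), and in replicate 3 likewise (1374). No other pair of libraries shared, within 100 bp and among their 5190 strongest peaks, a summit in a tubulin window that had no combined summit within 100 bp.

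The alphaTub84B promoter holds the word GGTTCGA, which is known from the B box, the internal promoter of tRNA genes. The word was chosen after its sequence had been seen. Its centre lay 26 bp upstream of the summit on the printed strand, and the nearest annotated tRNA gene was 43396 bp away. The word was in 1 of the 12 tubulin sites and in 90 of the 5190 IDR windows (1.73%), of which 88 had no tRNA gene within 500 bp. Of 290 annotated tRNA genes, 145 hold it. Its share in windows without a summit was not counted, so these values do not show whether the word is more common at summits. No factor at this word was measured.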
